A study of Homo sapiens with 16 samples.

Results

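The genes described here were silent in the colon cancer cell line HCT116 and bright in the colon cancer cell line RKO. A probe set, a group of short probes that reads 1 transcript, belonged to them when its signal was under 100 in each of the 4 HCT116 arrays without 5-aza-dC and 1000 or more in each of the 8 RKO arrays. IFI27 was left out. There were 34 such probe sets of 30 genes, out of 19775 genes and 41097 probe sets that the platform's annotation gives a single gene symbol and 54675 in all. CCND2, HGF, IFI16 and XIST had 2 member probe sets each. The members were selected on the signals of these 12 arrays, so the low level without 5-aza-dC and the high level in RKO are a description. The 4 HCT116 arrays with 5-aza-dC took no part in the choice, and the question put to them was which of the silent genes reached a signal of 250, called on here, and which stayed low.

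Both lines had been grown in medium with serum and treated for 3 days. Each line had 8 conditions with 1 array each: the control, 5-aza-dC, TSA and PJ-34 alone, PJ-34/5-aza-dC, 5-aza-dC/TSA, PJ-34/TSA, and PJ-34/5-aza-dC/TSA. The dose was 0.5 µM for 5-aza-dC and 0.15 µM for TSA in both lines. For PJ-34 it was 3 µM in HCT116, while for RKO the study's text gives 2 µM in one place and 3 µM in another. HCT116 and RKO are established lines from human colon carcinomas, and no transgene or deletion was part of the design.

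Methyl groups on cytosines of CpG dinucleotides around a gene's start are known to keep many genes off in cancer cells. 5-aza-dC (5-aza-2′-deoxycytidine) is built into DNA during replication and traps DNA methyltransferases, so that daughter strands lose the mark. TSA (trichostatin A) blocks histone deacetylases, and PJ-34 blocks poly(ADP-ribose) polymerases. A gene that 1 line expresses and another keeps off is a common setting in which to ask whether removal of DNA methylation is enough to switch it on. DNA methylation itself was not read by these arrays.

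All arrays were scaled to the same mean, with median signals of 160 to 210 in HCT116 and 152 to 202 in RKO, and 21.9% to 27.3% of probe sets read under 50. Between arrays, the correlation of log2 signals was 0.933 to 0.968 within a line and 0.868 to 0.901 between lines. The epithelial gene EPCAM was high in both lines (28158 to 35438 in HCT116 and 3544 to 4139 in RKO), whereas CDH1, which encodes E-cadherin, was 5297 to 10572 in HCT116 and 3.90 to 117 in RKO. Of the intestinal markers, CDX2, VIL1 and CDH17 were low in both, LGALS4 reached 441 in HCT116 and 155 in RKO, and KRT20 read 258 to 3566 in HCT116, where it passed the test upwards with 5-aza-dC, and at most 314 in RKO. Blood markers read under 250 in both lines, and fewer cells of a type and less RNA per cell cannot be told apart in such bulk samples. A pair of RKO arrays went against their labels. Over the 166 probe sets that 5-aza-dC raised in HCT116, the median log2 change from the RKO control was 0.79 for the label PJ-34 and 0.00 for the label PJ-34/5-aza-dC, beside 0.65 with 5-aza-dC alone. The rule gave the same 34 probe sets when both of these arrays were left out.

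The promoters of a few members are shown first, since their CpG content differed widely. RefSeq gave 32 promoters for 24 of the 30 genes, each from 250 bases before to 50 bases after a gene's start on GRCh38.p14. The first 3 below belong to the genes that reached 250 in HCT116. The next 3 belong to PRTFDC1, which reached an intermediate signal, and to SCCPDH and ZNF883, which stayed under 100. Each is read 5′ to 3′ along the gene's own strand, and capitals mark every CG.
LXN, chr3:158672599-158672898, minus strand: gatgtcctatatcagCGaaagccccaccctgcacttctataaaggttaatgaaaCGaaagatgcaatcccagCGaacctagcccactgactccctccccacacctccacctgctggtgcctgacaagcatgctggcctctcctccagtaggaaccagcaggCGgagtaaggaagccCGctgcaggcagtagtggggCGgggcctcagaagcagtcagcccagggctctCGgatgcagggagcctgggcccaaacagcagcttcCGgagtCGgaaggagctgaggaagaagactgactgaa
XIST, chrX:73852665-73852964, minus strand: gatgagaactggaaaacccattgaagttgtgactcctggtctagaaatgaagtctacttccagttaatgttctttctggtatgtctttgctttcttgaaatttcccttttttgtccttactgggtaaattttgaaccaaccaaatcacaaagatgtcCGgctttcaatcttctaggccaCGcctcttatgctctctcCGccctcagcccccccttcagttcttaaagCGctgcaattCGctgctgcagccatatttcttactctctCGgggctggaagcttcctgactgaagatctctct
FRMD4A, chr10:14008501-14008800, minus strand: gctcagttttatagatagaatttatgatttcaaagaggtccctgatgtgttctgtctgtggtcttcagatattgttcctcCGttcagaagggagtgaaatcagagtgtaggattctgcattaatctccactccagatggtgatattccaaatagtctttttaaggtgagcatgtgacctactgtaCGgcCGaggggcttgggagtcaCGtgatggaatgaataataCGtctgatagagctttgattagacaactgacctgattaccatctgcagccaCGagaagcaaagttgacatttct
PRTFDC1, chr10:24952557-24952856, minus strand: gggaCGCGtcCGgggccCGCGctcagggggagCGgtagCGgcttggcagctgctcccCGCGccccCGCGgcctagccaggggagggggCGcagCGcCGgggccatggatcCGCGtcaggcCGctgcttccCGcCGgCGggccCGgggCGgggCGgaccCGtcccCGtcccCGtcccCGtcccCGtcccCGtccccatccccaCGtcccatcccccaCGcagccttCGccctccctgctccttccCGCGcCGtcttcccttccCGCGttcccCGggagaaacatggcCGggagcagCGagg
SCCPDH, chr1:246724159-246724458, plus strand: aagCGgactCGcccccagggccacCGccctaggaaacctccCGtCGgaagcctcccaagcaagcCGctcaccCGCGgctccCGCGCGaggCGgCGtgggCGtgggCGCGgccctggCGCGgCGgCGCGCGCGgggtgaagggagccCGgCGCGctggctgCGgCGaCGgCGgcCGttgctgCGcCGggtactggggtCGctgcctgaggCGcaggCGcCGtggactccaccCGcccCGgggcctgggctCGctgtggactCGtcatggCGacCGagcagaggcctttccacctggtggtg
ZNF883, chr9:113012143-113012442, minus strand: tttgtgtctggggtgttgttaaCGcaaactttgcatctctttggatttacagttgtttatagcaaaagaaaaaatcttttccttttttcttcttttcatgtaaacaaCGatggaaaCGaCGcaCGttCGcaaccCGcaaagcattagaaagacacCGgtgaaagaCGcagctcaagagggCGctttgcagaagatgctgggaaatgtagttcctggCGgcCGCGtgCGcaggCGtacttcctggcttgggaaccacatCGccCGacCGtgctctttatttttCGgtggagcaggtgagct

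The LXN promoter held 9 CG, the XIST promoter 6, and the FRMD4A promoters 6 and 1 (only the first is printed). By contrast, PRTFDC1 held 40, SCCPDH 43 and ZNF883 19, and the counts of SCCPDH and PRTFDC1 were the highest of all members. The median was 11.5 over the 32 member promoters and 14 over all 35116 promoters of the same length, 96.0% of which held at least 1 CG, a motif that reads the same on both strands. None of the 4 promoters of the genes that reached 250 held 15 or more. That many were found in 8 of 12 promoters (66.7%) of the genes with intermediate signals, in 7 of 16 (43.8%) of the genes that stayed under 100, and in 48.9% of all promoters. The median count was 6 for the genes that reached 250, 17 for the intermediate ones and 8.5 for those that stayed under 100. High and low CpG counts were thus both present among the genes that stayed low. SLC2A10 (31), ZNF420 (30 and 21), ZNF140 (29), ZNF529 (28 and 25), CBR1 (27) and ANGPTL4 (20) lay above the median of all promoters. So did AGMAT (19), GSPT2 (17) and PSMB8 (17 and 15). Below it lay LINC01537 (1), BCL2A1 (2), IFI16 (1 and 3), TM4SF1 (4), HGF (7), ADAMTSL1 (8), RGS4 (8, 4, 8 and 2) and LEF1 (9). CADM1, IL13RA2, CCND2, GSTT1, HAS2 and SFTA1P had no match in the table. These counts describe letters in a window, not methylation.

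**Figure D1:**
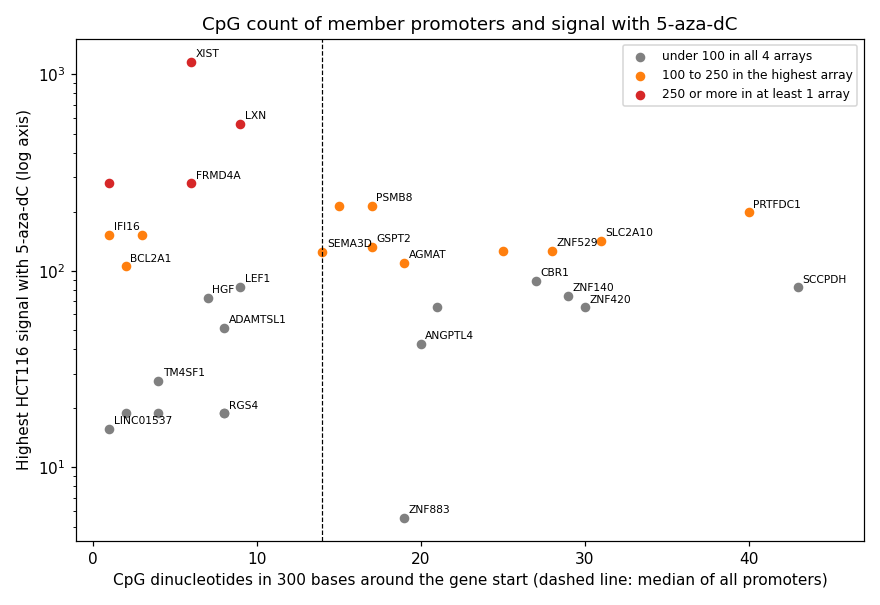
Each point is 1 RefSeq promoter of a member gene, with the number of CpG dinucleotides in its 300 bases on the x axis and the highest signal of the gene among the 4 HCT116 arrays with 5-aza-dC on the y axis (log scale). The 4 promoters of the genes that reached 250 (red) hold 1 to 9 CpG, left of the median of all promoters at 14, while genes that stayed under 100 (grey) spread from 1 to 43. A gene with several promoters is named at its first one.

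Most of the members stayed low after 5-aza-dC. Of the 34 probe sets, 4 reached 250 in at least 1 of the 4 HCT116 arrays with 5-aza-dC (11.8%), against a background of 2.44% over all 6713 probe sets that were equally silent without the drug. These 4 belonged to 3 genes: LXN, XIST with 2 probe sets, and FRMD4A. In all 4 arrays the signal reached 250 for 1 member, LXN (background 0.0894%). A further 15 members reached between 100 and 250 in their highest array, and 15 (44.1%) stayed under 100 in every array (background 61.3%). By gene, 3 were on, 13 were intermediate and 14 stayed under 100. The background itself is mixed: of the 3246 probe sets that were under 100 in all RKO arrays too, 1.39% reached 250 in an HCT116 array with 5-aza-dC, 0.0308% did so in all 4, and 73.9% stayed under 100 in all 4. Another 3433 silent probe sets read 100 or more in at least 1 RKO array but missed the rule. Of these, 3.35% reached 250, 0.117% did so in all 4, and 49.5% stayed under 100 in all 4. The median of the highest array was 108 over the members, 101 over these 3433 and 82.5 over all silent probe sets. Whether the members differ from the 3433 was not tested.

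The number of members at 250 or more differed between the 4 conditions. The array with 5-aza-dC alone held 4 members at 250 or more, PJ-34/5-aza-dC held 2, and 5-aza-dC/TSA and the triple treatment held 1 each. Over all silent probe sets the order was the same, with 98 (1.46%), 85 (1.27%), 30 (0.447%) and 26 (0.387%). The array with 5-aza-dC alone also had the highest median signal of all arrays, 210. The combinations had 172, 168 and 174 in the same order, so a fixed limit of 250 favours the first array. Whether this accounts for the order was not tested. The members that reached 250 all had their highest signal with 5-aza-dC alone. The intermediate members peaked in any of the 4 arrays, namely 5 with 5-aza-dC alone, 3 with PJ-34/5-aza-dC, 4 with 5-aza-dC/TSA and 3 with the triple treatment.

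**Figure D2:**
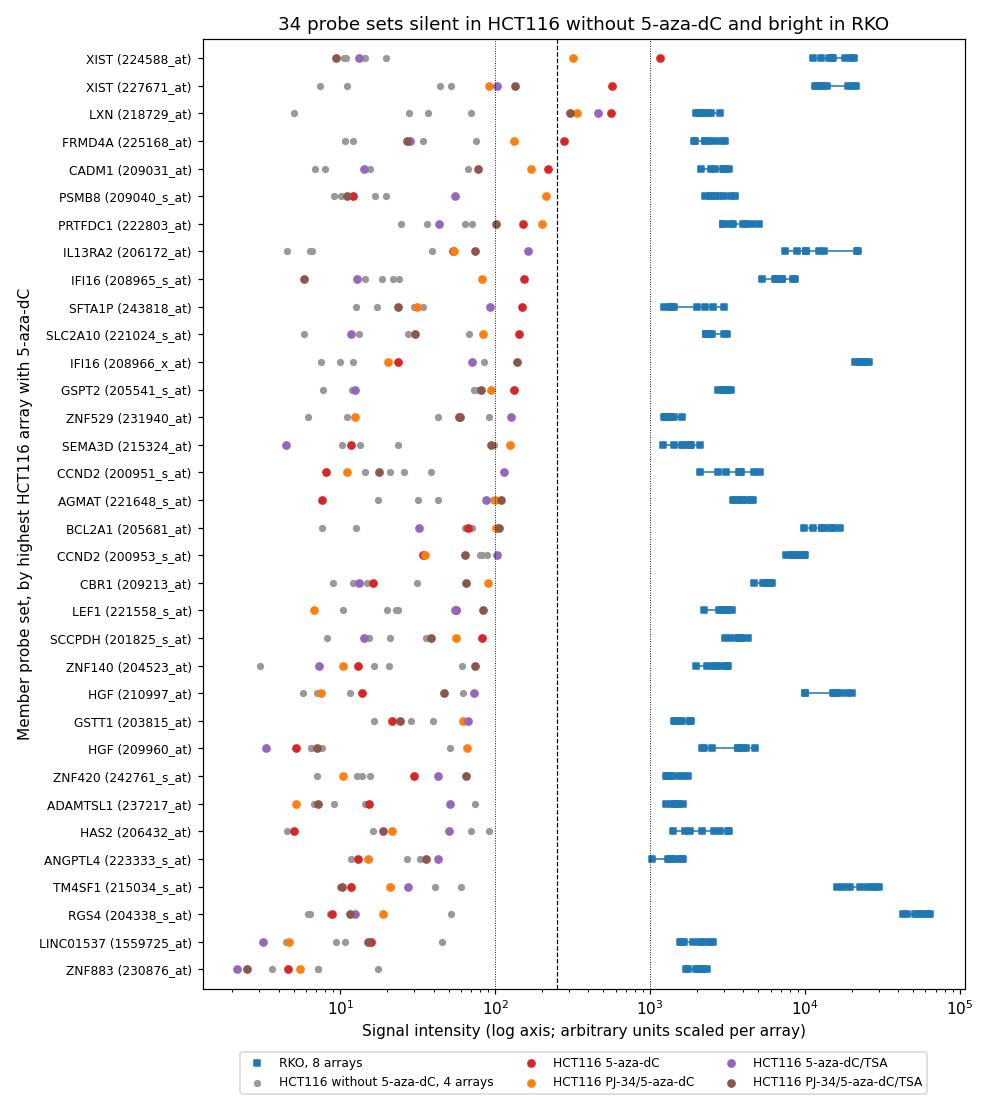
Signal intensity (x axis, log scale) of the 34 member probe sets (rows), ordered by their highest HCT116 array with 5-aza-dC. Blue squares are the 8 RKO arrays, grey points the 4 HCT116 arrays without 5-aza-dC, coloured points the 4 with it; dotted lines stand at the limits of 100 and 1000 and the dashed line at 250. XIST, LXN and FRMD4A are the genes that pass 250, and even LXN stays under the 1976 to 2812 that it reached in RKO.

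LXN (218729_at) encodes latexin, an inhibitor of carboxypeptidases that also limits the number of blood stem cells in mice. Its HCT116 signal was 27.7 in the control, 36.6 with PJ-34, 5.01 with TSA and 69.9 with PJ-34/TSA. With 5-aza-dC it was 562 alone, 339 with PJ-34, 459 with TSA and 306 with both. Every array with 5-aza-dC stood above every array without it. RKO had 1976 to 2812, so the geometric mean of the HCT116 arrays with 5-aza-dC reached 17.9% of that of RKO. The limma fit put the change with 5-aza-dC at 2.90 on the log2 scale (SE 0.40; 4 arrays against 4, signals under 50 set to 50), which is a description because the rule held the arrays without the drug low. LXN was the 1 member of 34 past the test in that fit, beside 0.394% of 42178 probe sets that passed upwards and 0.0285% downwards, and nothing is read from this count. The call was made in 3 of the 8 fits that left out 1 array, with changes of 2.71 to 3.13 and adjusted p of 0.0231 to 0.125. It was lost without the control array (adjusted p = 0.0785) and without the arrays with PJ-34 (0.075), 5-aza-dC (0.125), PJ-34/5-aza-dC (0.0524) or 5-aza-dC/TSA (0.068).

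XIST is the long noncoding RNA that coats and silences an X chromosome. On its probe set 224588_at, HCT116 read 10.6 to 19.7 without 5-aza-dC, then 1161 with 5-aza-dC alone and 318 with PJ-34/5-aza-dC. The signal was 13.3 with 5-aza-dC/TSA and 9.35 with the triple treatment. Both arrays that combined 5-aza-dC with TSA were thus as low as the arrays without 5-aza-dC. The second probe set, 227671_at, read 7.44 to 52.1 without 5-aza-dC. It read 568 with 5-aza-dC alone, 91.7 with PJ-34/5-aza-dC, 102 with 5-aza-dC/TSA and 135 with the triple treatment. Here all 4 arrays with 5-aza-dC stood above all 4 without it, and the array with 5-aza-dC alone stood well above the other 3. RKO read 11253 to 20851 on the first probe set and 11687 to 21291 on the second, and the highest HCT116 array reached 7.71% and 4.23% of the RKO median. The fitted changes with 5-aza-dC were 1.80 (SE 0.70) and 1.70 (SE 0.54) on the log2 scale, again as a description.

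XIST has 8 probe sets on the array, 6 of them with an RKO median of 1000 or more. In all 6 the highest of the 4 HCT116 arrays with 5-aza-dC was the one with 5-aza-dC alone. The non-member 214218_s_at read 429 in it, against 115.8 at most without 5-aza-dC. This probe set read 148 with PJ-34/5-aza-dC, 5.60 with 5-aza-dC/TSA and 135 with the triple treatment. The non-member 221728_x_at read 328 with 5-aza-dC alone, against 173.7 at most without 5-aza-dC. Its signal was 169 with PJ-34/5-aza-dC, 99.9 with 5-aza-dC/TSA and 162 with the triple treatment. The remaining pair of these read less: 224589_at reached 105 with 5-aza-dC against 114 at most without it, and 224590_at reached 134 against 83.6. The 2 dim probe sets went the other way. 235446_at read 72.0 with 5-aza-dC alone against 268 at most without 5-aza-dC, and 243712_at read 13.4 against 310, where RKO itself read 119 to 560. Probe sets of a single transcript in a single array are not separate samples of the condition.

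FRMD4A encodes a FERM domain scaffold protein that takes part in epithelial polarity. Its member probe set 225168_at read 10.7 to 75.5 without 5-aza-dC. With it the signals were 279 alone, 132 with PJ-34, 28.3 with TSA and 27.1 with both. Only the first of these passed 250, and both arrays with TSA lay within the range of the arrays without 5-aza-dC. RKO read 1933 to 3028. The fitted change with 5-aza-dC, as for the genes above a description, was 0.82 (SE 0.53). The other 7 FRMD4A probe sets did not reach 250 in any HCT116 array with 5-aza-dC, and 225167_at came nearest, at 247 with PJ-34/5-aza-dC against 219 in the highest array without 5-aza-dC.

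**Figure D3:**
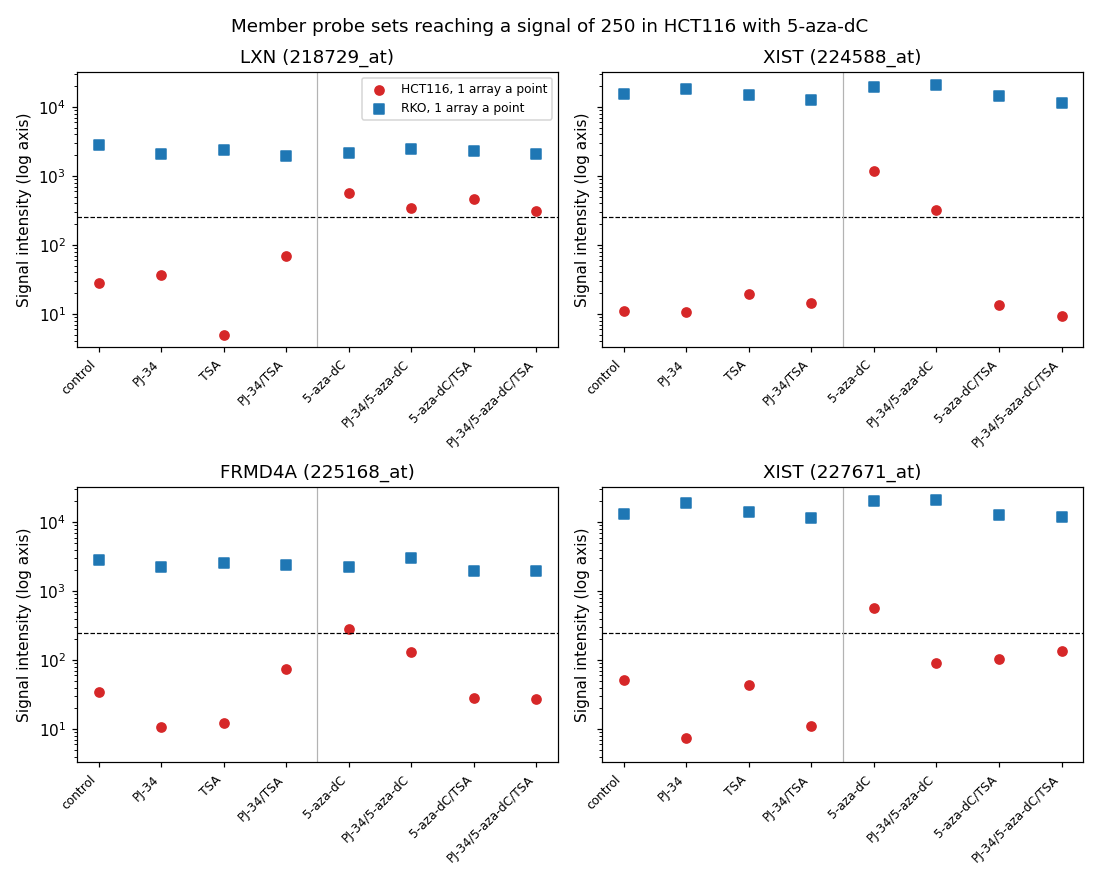
Signal intensity (y axis, log scale) of the 4 member probe sets that reached 250 (dashed line) in HCT116 with 5-aza-dC, by condition (x axis); each point is 1 array, red for HCT116 and blue for RKO. LXN lies above the dashed line in all 4 arrays right of the grey line, while FRMD4A and XIST 224588_at lie at the level without 5-aza-dC where TSA was added.

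Some intermediate genes resembled FRMD4A in having both arrays without TSA higher than both arrays with it, and act in adhesion, purine metabolism or translation. CADM1, an immunoglobulin-type adhesion molecule that many carcinomas silence, read 218 with 5-aza-dC alone, 170 with PJ-34/5-aza-dC, 14.3 with 5-aza-dC/TSA and 77.9 with the triple treatment, against 67.2 at most without 5-aza-dC. The CADM1 probe set 209030_s_at, at 1383 to 2155 in RKO, did not have this pattern. It read 96.5 with 5-aza-dC alone and 160 at most with the drug, against 216 at most without it. On 209032_s_at both arrays without TSA were again the higher ones (134 and 62.4, against 56.0 and 22.6). An array without 5-aza-dC reached 251 there, so this probe set did not rise above the level without the drug. PRTFDC1, a relative of the purine salvage enzyme HPRT1, read 151, 199, 43.7 and 101 in the same order, against 70.9 at most. Its highest HCT116 array was at 5.36% of the RKO median, and RKO read 2953 to 5021. GSPT2, a translation termination factor encoded on the X chromosome, read 132.9, 94.7, 12.5 and 81.0, against 77.8 at most. The glucose transporter gene SLC2A10 had the same order of conditions as CADM1 (142, 83.7, 11.7 and 30.2).

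Among the intermediate members with roles in immunity and survival, the conditions did not line up. IFI16, a sensor of DNA in the nucleus and cytosol, read 153, 82.1, 12.7 and 5.81 on 208965_s_at. Its second member probe set, 208966_x_at, ran the other way, with 23.6, 20.3, 70.8 and 138. The probe sets therefore disagree, and the RKO signals were 5324 to 8645 on the first and 21054 to 25771 on the second. PSMB8, a catalytic subunit of the immunoproteasome, reached 214 with PJ-34/5-aza-dC and read 11.1 to 54.7 in the other 3 arrays. BCL2A1, an inhibitor of apoptosis of the BCL2 family, read 101 and 106 with PJ-34/5-aza-dC and the triple treatment, beside 9897 to 16775 in RKO.

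IL13RA2, the decoy receptor for interleukin 13, read 4.52 to 39.3 without 5-aza-dC. It read 53.2, 54.4, 162 and 74.4 with 5-aza-dC alone, PJ-34/5-aza-dC, 5-aza-dC/TSA and the triple treatment. With LXN and XIST 227671_at, it made up the 3 members (8.82%) whose 4 arrays with 5-aza-dC all stood above the 4 without, beside 3.58% of the 6713 silent probe sets. No member had all 4 below (background 1.13%). As the rule limits the arrays without 5-aza-dC, nothing is read from these counts.

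The remaining intermediate genes passed 100 in 1 array each per probe set. CCND2, which encodes the cell cycle driver cyclin D2, did so with 5-aza-dC/TSA on both probe sets (115 and 103), where the other 3 arrays read 8.13 to 64.1. On the second of these, 200953_s_at, arrays without 5-aza-dC already read up to 89.0, and on 200951_s_at up to 38.3. The zinc finger gene ZNF529 reached 126 in the same condition, against 91.7 with TSA alone, and the noncoding gene SFTA1P reached 150 with 5-aza-dC alone. SEMA3D, a secreted semaphorin that guides axons and vessels, read 125 with PJ-34/5-aza-dC, while its highest array without 5-aza-dC was already at 98.5. AGMAT, named after agmatinase, read 7.60 with 5-aza-dC alone and 87.7 to 110 in the 3 combinations, against 96.7 with TSA alone. For SEMA3D, AGMAT, ZNF529, SFTA1P and CCND2 the arrays with and without 5-aza-dC overlapped.

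The 14 genes whose member probe sets stayed under 100 in all 4 arrays included several with very high signals in RKO. RGS4, which speeds the shut-off of G protein signalling, read 43261 to 64150 in RKO and 8.88, 18.9, 12.5 and 11.6 in HCT116 with 5-aza-dC. TM4SF1, a membrane protein with 4 spans, read 16098 to 30114 in RKO and 10.3 to 27.5 in HCT116 with 5-aza-dC. HGF, the ligand of the MET receptor, read 10075 to 20264 in RKO on 210997_at and 7.51 to 73.2 in HCT116 with 5-aza-dC. On its other member probe set, 209960_at, HGF read 2162 to 4790 in RKO and 3.30 to 65.5 in HCT116 with 5-aza-dC.

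Other secreted or matrix genes were as low. ANGPTL4, an inhibitor of lipoprotein lipase, read at most 42.7 with 5-aza-dC, HAS2, a hyaluronan synthase, at most 50.6, and ADAMTSL1, a secreted ADAMTS-like protein, at most 51.3. LEF1, the transcription factor that partners β-catenin in Wnt signalling, reached 82.9 with the triple treatment. Both detoxification enzymes stayed low: CBR1, a carbonyl reductase, reached 89.3 with PJ-34/5-aza-dC and GSTT1, a glutathione transferase, 66.7 with 5-aza-dC/TSA. SCCPDH, a protein related to saccharopine dehydrogenase, reached 82.7 with 5-aza-dC alone, and the noncoding gene LINC01537 15.7.

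The zinc finger genes ZNF140, ZNF420 and ZNF883 also stayed under 100, with at most 74.5, 65.1 and 5.52. ZNF883 was at 2.16 to 5.52 with 5-aza-dC and 3.65 to 17.5 without it, while RKO read 1716 to 2345. ZNF420 and ZNF529 lie near each other in a cluster of zinc finger genes. Among the genes between them, ZNF567 was bright in both lines (lowest RKO signal 2399, HCT116 median 942 without 5-aza-dC). LOC728485 came close to the rule, with at least 1396 in RKO and at most 121 in HCT116 without 5-aza-dC, and reached 160 with it. ZNF850 read at least 632 in RKO and at most 153 in HCT116 without 5-aza-dC, and 233 at most with it. The other genes read there were ZNF529-AS1, ZNF382, ZNF461, ZNF790-AS1, ZNF345, ZNF829 and ZNF568. They were low in RKO, with medians from 41.5 (ZNF829) to 121.5 (ZNF345). Genes bright in RKO only, genes low in RKO and a gene bright in both lines thus stood in the same stretch.

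Whether TSA or PJ-34 changed the members on top of 5-aza-dC was tested within the 4 HCT116 arrays with 5-aza-dC, which the rule did not use. A fit with both drugs leaves 1 residual degree of freedom. All members entered it through their RKO signals, and those that stayed near or under the floor of 50 in these arrays (RGS4, TM4SF1, ANGPTL4, ZNF883 and LINC01537 among them) could not show a difference. For TSA it called 0 of 42178 probe sets in either direction (0.0%), although 4991 had an unadjusted limma p under 0.05, and the smallest adjusted p was 0.362. No member passed, and 3 had an unadjusted p under 0.05. XIST 224588_at had a difference of -3.60 with TSA on the log2 scale (SE 0.70, adjusted p = 0.362), FRMD4A one of -1.94 (SE 0.54, adjusted p = 0.379) and CADM1 one of -1.62 (SE 0.55, adjusted p = 0.413). For XIST 227671_at the difference was -0.96 (SE 0.93, adjusted p = 0.701). The first XIST value passed with a floor of 20 in place of 50 (adjusted p = 0.0144) and in a fit of all 8 HCT116 arrays with interactions (adjusted p = 0.0395), and its adjusted p ranged up to 0.519 over the alternatives.

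By order alone, 9 members (26.5%) had both arrays with 5-aza-dC and TSA below both with 5-aza-dC without TSA, beside 21.3% of all silent probe sets. The opposite order was found in 8 members (23.5%), beside 12.6%. The first group held CADM1, FRMD4A, GSPT2, PRTFDC1, SCCPDH, SLC2A10, ZNF883 and a probe set each of IFI16 and XIST. The second held ANGPTL4, IL13RA2, ZNF420, ZNF529, both probe sets of CCND2 and a probe set each of HGF and IFI16. The downward share was near the background, and the upward share was above it, with both probe sets of CCND2 among the 8. Many of these values lie under 50, where arrays cannot be ordered reliably. The difference from the background was not tested. For PJ-34 the same fit called 0 probe sets (0.0%; 4326 with an unadjusted limma p under 0.05, smallest adjusted p 0.482), and no member had an unadjusted p under 0.05.

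In RKO the rule asked for 1000 or more in each array, so a gene that a drug lowered far in RKO could not be a member, and the RKO values describe the range that was left. The ratio of the highest to the lowest RKO array was 1.21 for GSPT2 and 2.95 for IL13RA2, the ends of the range over the 34 probe sets. The limma fit of the 8 RKO arrays called 0 of 42178 probe sets (0.0%) for each drug in either direction, with 2235 at an unadjusted p under 0.05 for 5-aza-dC, 4513 for TSA and 1363 for PJ-34. Of the members, 2, 9 and 2 had an unadjusted p under 0.05. These 8 arrays include the pair that went against their labels. Without that pair, the limma fit called 5 probe sets for 5-aza-dC, none of them a member. Its smallest adjusted p was 0.00569, against 0.87 with all 8 arrays. For TSA and PJ-34 it still called 0.

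IL13RA2 was the member that varied most in RKO. It read 7483 in the control, 10095 under the label PJ-34, 10144 with 5-aza-dC and 8876 under the label PJ-34/5-aza-dC. With TSA it read 12348 alone, 13305 with PJ-34, 21550 with 5-aza-dC and 22086 in the triple treatment. All 4 arrays with TSA stood above the 4 without it, and the fitted change was 0.88 on the log2 scale (SE 0.15, adjusted p = 0.317). In HCT116 its highest signal was with 5-aza-dC/TSA, whereas in RKO it was with the triple treatment. Without the pair of RKO arrays that went against their labels, the change with TSA was 0.90 (SE 0.11, adjusted p = 0.741) and that with 5-aza-dC 0.66 (SE 0.09, adjusted p = 0.244), compared with 0.45 (SE 0.15, adjusted p = 0.87) over all 8 arrays.

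TM4SF1 read 25020 to 30114 in the RKO arrays with TSA and 16098 to 22623 in those without, a change of 0.55 (SE 0.11, adjusted p = 0.317). XIST 224588_at ran the other way, with 11253 to 14865 with TSA and 15247 to 20851 without, a change of -0.48 (SE 0.12, adjusted p = 0.362). On XIST 227671_at the change was -0.52 (SE 0.15, adjusted p = 0.365) and the arrays overlapped. HAS2 had a difference of -0.62 (SE 0.17, adjusted p = 0.365). None of these passed the test over all probe sets, and without the doubted pair of arrays the XIST changes shrank to -0.26 (SE 0.15, adjusted p = 0.792) and -0.28 (SE 0.19, adjusted p = 0.799).

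The array holds 47 other probe sets for 18 of the 30 genes, and none for the other 12, LXN among them. Of these 47, 18 (of 9 genes) were 1000 or more in all RKO arrays. They missed the rule only through HCT116, where the highest array without 5-aza-dC was 114 to 351. Several of them were no higher with 5-aza-dC than without: RGS4 204337_at read 154 at most with 5-aza-dC against 245 at most without, and HGF 210755_at 48.3 against 282. IFI16 206332_s_at read 113 at most with 5-aza-dC, against 146 without, and 16344 to 20245 in RKO. TM4SF1 209386_at, at 25797 to 41380 in RKO, reached 263 with 5-aza-dC/TSA, against 230 at most without 5-aza-dC. In all, 5 of the 47 reached 250 with 5-aza-dC, 3 of XIST and 1 each of AGMAT and TM4SF1. The AGMAT probe set 219792_at (276) was at 273 in an array without 5-aza-dC, and XIST 235446_at (264) was at 268.

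**Figure D4:**
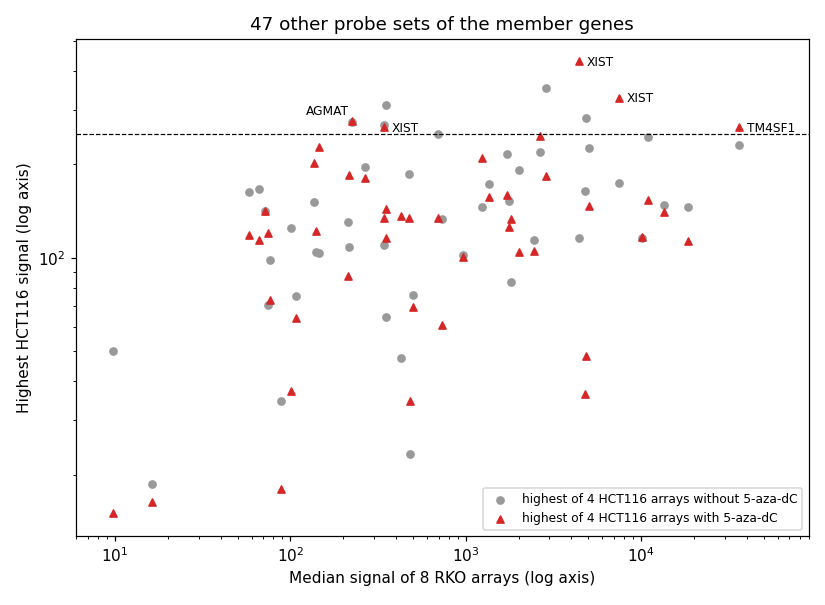
The 47 other probe sets of the member genes, with the median of the 8 RKO arrays on the x axis and the highest HCT116 signal on the y axis (both log scales). Grey points are the highest of the 4 arrays without 5-aza-dC and red triangles the highest of the 4 with it; the 5 triangles at 250 or more (dashed line) carry gene names, and XIST at 429 is the highest.

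The limits of the rule cut through a continuous range. Just inside the HCT116 limit lay SEMA3D (98.5), AGMAT (96.7) and ZNF529 (91.7), and just outside it TCEAL1 (100.8), LINC01116 (102.3) and CACNA2D1 (102.3), each by the highest array without 5-aza-dC. Just inside the RKO limit lay ANGPTL4 (1023), SEMA3D (1214) and SFTA1P (1226), and just outside it XIST 224590_at (995), OPCML (948) and DGKI (941), each by the lowest RKO array.

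Members were also looked up on fixed gene lists. PSMB8 is on the lists of interferon-stimulated genes (41 on the array) and of antigen presentation genes (19). CBR1 and GSTT1 are among 30 detoxification genes, and 4 members are among 554 zinc finger genes, out of 19775 genes in all. Whether these shares differ from those over all genes was not tested. No member was on the lists of cancer-testis antigens or of genes methylated in colorectal cancer. With 5-aza-dC in HCT116, cancer-testis antigens (germline genes that cancers can re-express) passed the test upwards in 7 of 21 (median log2 change 1.76). Of genes methylated in colorectal cancer 3 of 57 passed, namely SPARC, UCHL1 and VIM. A gene silent without 5-aza-dC can pass the filter on low signals through the very arrays where the drug raised it. Of 25 cancer-testis antigens on the array 21 were tested, so their share and median depend in part on the filter. Of 19 antigen presentation genes and 29 detoxification genes 0 passed (medians 0.12 and 0.18), and of 502 zinc finger genes 1 did, ZFP42. Of interferon-stimulated genes 3 of 38 passed upwards. The lists of blood-lineage, fibroblast and mesenchyme, and colon epithelium markers hold no member. In these, 3 of 16, 4 of 29 and 1 of 17 passed upwards. Over all 16647 genes, 104 passed upwards and 7 downwards, with a median of 0.02. The members' own median in that fit, 0.30 over the 34 probe sets, cannot be set beside these medians, because the rule held their arrays without 5-aza-dC under 100.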

How the data were processed

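Expression was read on Affymetrix U133 Plus 2.0 arrays, 1 for each of 8 conditions in each line. The authors deposited linear signal intensities, not logged, that GCOS had scaled per array; its version is not given in the sources used here. Groups came from the labels and gene symbols from the annotation of the platform, in which 41097 probe sets have 1 symbol, 1801 several and 11777 none; no member's symbol needed an update. A floor of 50 was applied before taking log2, and the 42178 probe sets with 100 or more in at least 4 of the 16 arrays were fitted with limma 3.58.1 in R 4.3.3 (variance trend, adjusted p under 0.05 by Benjamini and Hochberg over all probe sets). All 34 members passed this filter, through RKO. The fits, with a term per drug, were tested on simulated data. Each drug effect compares arrays of different combinations, so the residual also holds interactions, and the number of arrays limits the precision. Detection calls were not used here. As there were under 40 member genes, all were named. The members, lists, limits and tests were chosen with earlier results of these data known. The alternatives were other limits for the rule and for on, another floor, no filter, quantile normalization, other fits and leaving out arrays.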

Additional observations from a re-analysis of the deposited data

How the results depend on the processing

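No paired analysis by replicate was possible because the replicate number, 1 on every array, pairs no samples. Arrays matched in the other drugs were compared through the drug terms of the fits, and not in a separate paired test. Among the summary counts, 67 stayed within 1.5 times and 24 moved under alternatives other than leaving out 1 array, and 74 stayed and 6 moved when 1 array was left out. With on set at 100, 19 members were on in at least 1 array and 15 in none. At 1000, 1 was on and 0 in all 4. At 500, or with 5 times the highest array without 5-aza-dC required as well, 3 were on and 0 in all 4. FRMD4A was the member lost at both of these settings. With quantile normalization, 3 were on and 1 in all 4. Without the HCT116 array with 5-aza-dC alone, 2 members were on (the range without any 1 array was 2 to 4 on, 1 to 1 on in all, 30 to 32 on in none and 17 to 19 under 100 in all). With limits of 50 and 1000 there were 14 probe sets, 1 on, 0 on in all, 13 on in none and 8 under 100. With 100 and 500 there were 59, with 4 on, 55 on in none and 30 under 100. With 200 and 1000 there were 91, with 13 on, 2 on in all (LXN and TXNIP) and 78 on in none. With 100 and 2000 there were 21, with 2 on, 0 on in all, 19 on in none and 7 under 100. Leaving out both doubted RKO arrays changed none of the counts over members. For 5-aza-dC in HCT116, 0 members passed without the filter and 2 with both lines in 1 fit (LXN and XIST 227671_at), and 0 to 1 without 1 array; over all probe sets these fits called 178 with the settings of the report, 2 without the filter, 230 with both lines and 43 to 475 without 1 array. For TSA on top of 5-aza-dC, 1 member passed with a floor of 20 (1030 probe sets called in all, against 0) and 1 with interactions (461 called in all); this was XIST 224588_at. The cause of these differences was not tested. Of the 47 other probe sets, 11 were silent in HCT116 without 5-aza-dC under a limit of 100 and 36 under 200.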
